A study of Penicillium oxalicum with 6 samples.

Results

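The genes described are 64 that encode putative transcription factors or related nuclear proteins of types other than Zn2Cys6 in the filamentous fungus *Penicillium oxalicum*. They were taken from the study's list of genes differing between strain GXUR001 and its parental strain TE4-10, as the entries whose transcription factor column names a type other than Zn2Cys6. The part of that list at hand holds 1998 genes, of which 105 carry a transcription factor type, 41 of them Zn2Cys6. All 64 genes were found among the 11159 rows of the deposited expression files. By the type named, 16 are C2H2 zinc finger genes, 16 are winged helix genes, 5 each are CCHC zinc finger and Myb genes, 4 are bZIP genes, 3 are homeobox or homeodomain-like genes, 2 hold an AT-rich interaction region, and 13 are of types with 1 member each. Because the list holds only genes that the study called changed in this same contrast, every fold change and call below is a description of genes picked for a difference, and supports no statement about the families.

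RNA-seq libraries were made from mycelium of GXUR001, in which *PoxCxrC* is deleted and *PoxAmyR* (*POX_f08097*) is overexpressed in TE4-10, and of TE4-10 itself. TE4-10 is given as wild type in the sample labels, but by the paper it is a random mutant of a *PoxKu70* deletion line that overexpresses the glucoamylase gene *PoxGA15A* from a cellulose-inducible promoter, a background that GXUR001 shares. Mycelium was grown in glucose for 24 h and sampled 24 h after transfer to the inducing medium. The paper gives wheat bran plus Avicel as its carbon source, and the labels give raw starch. The comparison rests on 3 GXUR001 libraries (replicates 1, 2 and 3) and 2 TE4-10 libraries (replicates 1 and 3), with TE4-10 replicate 2 not analysed here. The paper calls the replicates biological. GXUR001 is an engineered strain with both gene changes, so the part of each cannot be told apart.

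Transcription factors bind DNA at short sites near genes and raise or lower their transcription, and filamentous fungi use them to match secreted enzymes to the carbon source. C2H2 fingers are short loops in which cysteine pairs and histidine pairs hold a zinc ion, and fungal C2H2 proteins include regulators of carbon catabolite repression, ambient pH response and conidiation. The winged helix is a DNA-binding fold of many otherwise unrelated proteins, bZIP proteins dimerise through a leucine zipper, and Myb and homeodomain proteins bind DNA through helix-turn-helix folds. The column is wider than its title. CCHC fingers often bind RNA or single-stranded nucleic acid, Not1 is the scaffold of a complex that shortens mRNA tails, and the gene entered as a Rad18-type finger, *POX_b01966*, is listed as DNA polymerase kappa, a polymerase that copies past DNA damage.

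Values are FPKM, in which fragments are scaled to gene length and library size, after a further rescaling that brings the typical gene to the same level in all 5 libraries. The factors divided out were 0.875, 0.917 and 0.991 in GXUR001 replicates 1, 2 and 3, against 1.145 and 1.099 in TE4-10 replicates 1 and 3. The rescaling moved the median log2 fold change over all 9636 genes tested to 0.00, against -0.26 in the FPKM as deposited, so fold changes here are relative to that median. Log2 fold changes are GXUR001 minus TE4-10 on log2(rescaled FPKM + 1), which understates the change of genes with low FPKM. From the steps of whole reads among low values, each GXUR001 library was 1.05 to 1.09 times as deep as either TE4-10 library. *PoxAmyR*, the overexpressed activator gene, had 103.5, 91.7 and 74.9 FPKM in GXUR001, against 54.8 and 60.7 FPKM in TE4-10, so every GXUR001 library lay above both TE4-10 libraries. No source used here ties *PoxCxrC* to a gene ID, so its deletion could not be checked in these values. The paper reports a PCR check of the strain and no detected expression of *PoxCxrC*.

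Of the 64 genes, 63 had a mean FPKM of at least 1 and were tested, and 1 winged helix gene was not. After rescaling, 17 of the 63 were higher and 46 lower in GXUR001 (73.0% lower, against 49.9% of all genes tested), and in the FPKM as deposited the members gave the same counts (73.0% lower), where 70.4% of all genes tested were lower. Over the members the log2 fold changes ran from -1.39 to 1.40 around a median of -0.41, against a median of 0.00 over all genes tested. The lowest, of the winged helix gene *POX_c04517*, rested on TE4-10 replicate 1 alone, and the next lowest was -1.21 for *POX_d04831*. In size these were modest differences, since 5 of the 63 reached an absolute log2 fold change of 1 and the median absolute value was 0.51. At an adjusted p under 0.05 from limma, 18 were called, 6 higher and 12 lower, where 17.8% of all genes tested were called, 9.74% higher and 8.08% lower. The 6 were the C2H2 genes *POX_a00949*, *POX_a01321* and *POX_c04470*, the CCHC gene *POX_a01627*, *POX_c03717* and *POX_c04028*. The 12 were the C2H2 genes *POX_a00634*, *POX_a00635* and *POX_d04831* and 9 genes of 9 other types. In the FPKM as deposited, 4 were called higher and 41 lower, where 4.80% of all genes were called higher and 22.8% lower. The calls also turned on single libraries. Without GXUR001 replicate 2, limma called 0 of the 63 (0.177% of all genes), while 10 higher and 23 lower had an unadjusted p under 0.05 (23.9% of all genes). Without GXUR001 replicate 1, 1 was called higher and 6 lower (5.57% of all genes), and without GXUR001 replicate 3, 2 higher and 4 lower (5.71%). Without TE4-10 replicate 1, 7 were called higher and 5 lower (11.3% of all genes), and without TE4-10 replicate 3, 10 in each direction (19.1%). The strains did not overlap in 61 of the 63 genes, against 53.1% of all genes tested. The rule used this contrast, and nothing is read from these counts.

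**Figure D1:**
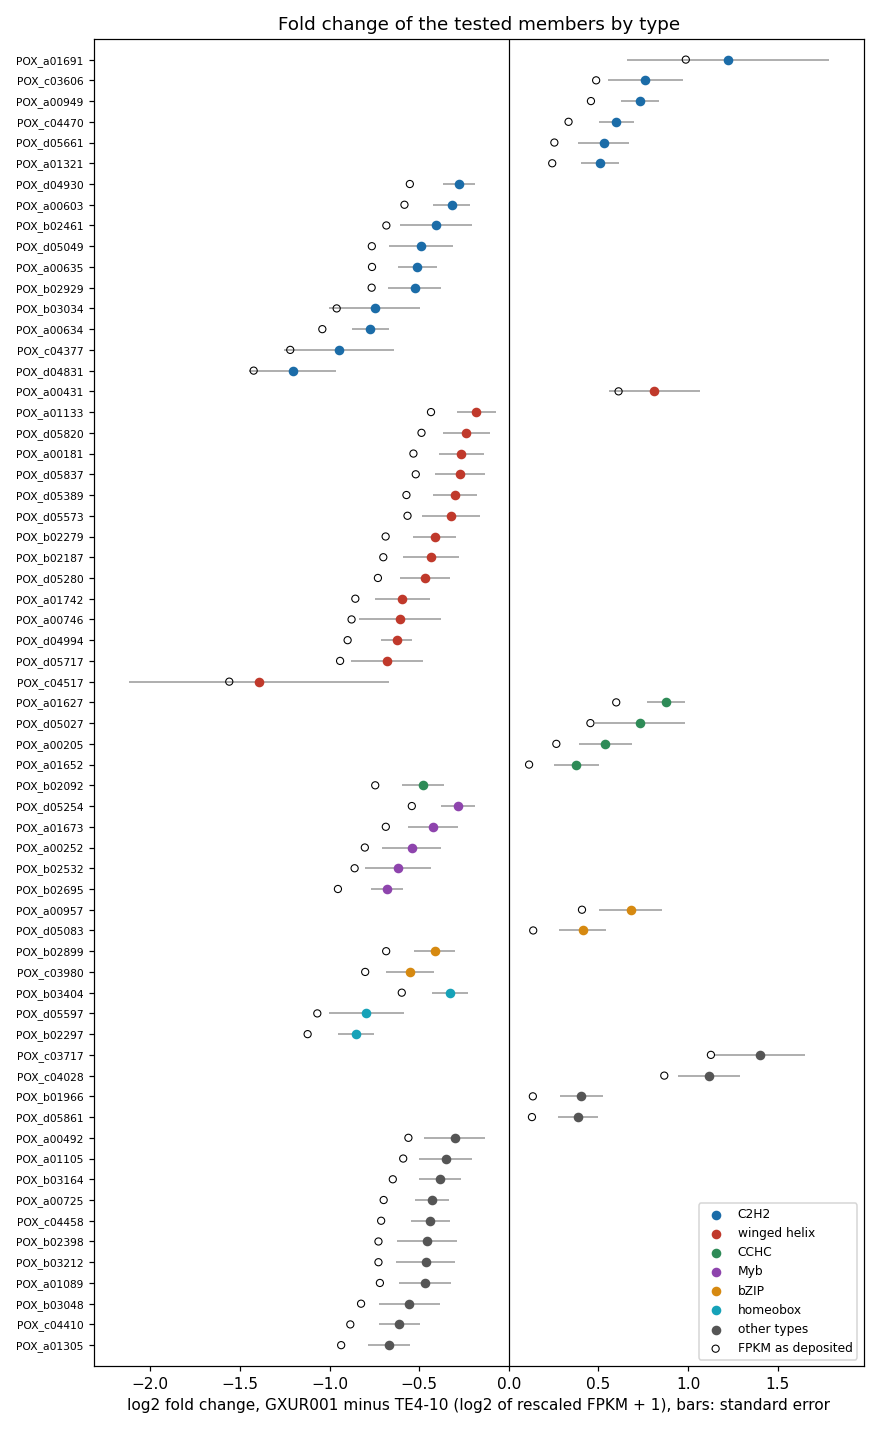
Log2 fold change (GXUR001 minus TE4-10, x axis) of the 63 tested genes, in rows grouped by type; filled points are rescaled values, bars are standard errors and open circles the FPKM as deposited. Filled points span -1.39 to 1.40, all 5 Myb and all 3 homeobox genes lie left of 0, and 4 of the 5 CCHC genes lie right of 0. The lowest point, *POX_c04517*, rests on TE4-10 replicate 1 alone.

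The threshold of the rule was the study's own p, which is not repeated here. Among the members, the log2 fold changes nearest to 0 on either side were -0.18 for *POX_a01133*, a winged helix gene, and 0.38 for *POX_a01652*, a CCHC gene. Genes just outside that threshold carry no transcription factor type in the table and could not be placed beside them.

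The 16 C2H2 genes ran in both directions, with 6 higher and 10 lower in GXUR001 and a median log2 fold change of -0.36. In each of them the strains did not overlap after rescaling, against 53.1% of all genes tested, and the rule picked them for a difference. The most abundant was *POX_c03606*, at 332.7, 298.1 and 268.5 FPKM in GXUR001, against 219.0 and 140.8 FPKM in TE4-10. Its log2 fold change of 0.76 (standard error 0.21) was 1.07 when TE4-10 replicate 1 was left out and 0.44 when TE4-10 replicate 3 was, so its size turned on which TE4-10 library was used. *POX_d05661* had 178.1, 165.1 and 132.7 FPKM in GXUR001, against 107.4 and 110.4 FPKM in TE4-10, a log2 fold change of 0.53. *POX_a00949* had 87.5, 88.7 and 92.3 FPKM in GXUR001, against 49.1 and 58.4 FPKM in TE4-10, a log2 fold change of 0.73 (standard error 0.11). The GXUR001 values of *POX_a00949* were within 1.05 times of each other, and its TE4-10 values within 1.19 times.

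A pair of C2H2 genes had nearly the same values in every library. *POX_c04470* was at 38.9, 35.4 and 33.7 FPKM in GXUR001, against 23.5 and 23.3 FPKM in TE4-10, and *POX_a01321* at 38.2, 34.3 and 32.9 FPKM, against 23.3 and 25.5 FPKM. Their log2 fold changes were 0.60 (standard error 0.10) and 0.51 (standard error 0.11). They lie on different chromosomes (III and I). The last of the higher genes, *POX_a01691*, had 15.7, 13.4 and 13.4 FPKM in GXUR001, against 2.27 and 11.9 FPKM in TE4-10. Here the TE4-10 libraries differed from each other by 5.23 times, more than the strains did. The log2 fold change of 1.22 (standard error 0.56) was 0.23 when TE4-10 replicate 1 was left out and 2.20 when TE4-10 replicate 3 was, and in the FPKM as deposited the strains overlapped.

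Among the lower C2H2 genes, *POX_d04831* had the largest difference, at 2.18, 2.44 and 1.36 FPKM in GXUR001, against 6.48 and 5.22 FPKM in TE4-10 (log2 fold change -1.21, standard error 0.25). It stands near the low end of expression, at percentile 11.9 of all genes tested. *POX_b03034*, also scarce, had 2.55, 2.12 and 1.503 FPKM in GXUR001, against 4.79 and 3.47 FPKM in TE4-10 (-0.75). *POX_c04377*, the only 1 of the 16 whose listed protein function also names a C2H2 zinc finger transcription factor, had 49.1, 39.8 and 30.2 FPKM in GXUR001, against 101.2 and 57.1 FPKM in TE4-10. The spread within each strain was wide, 1.63 times among the GXUR001 libraries and 1.77 times between the TE4-10 libraries. Its log2 fold change was -0.95 (standard error 0.30), with -0.54 without TE4-10 replicate 1 and -1.36 without TE4-10 replicate 3.

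*POX_a00634* and *POX_a00635* are next to each other in the reference gene order on chromosome I, and no other members are direct neighbours. *POX_a00634* had 23.8, 23.5 and 26.7 FPKM in GXUR001, against 44.3 and 41.2 FPKM in TE4-10 (log2 fold change -0.77, standard error 0.10). *POX_a00635* had 8.84, 9.04 and 8.32 FPKM in GXUR001, against 12.5 and 13.2 FPKM in TE4-10 (-0.51, standard error 0.11). Both were lower, whereas the following genes *POX_a00636* and *POX_a00637*, which are not members, had higher values in GXUR001, by 1.08 and 1.09 on the log2 scale (standard errors 0.20 and 0.10). Whether reads were shared between neighbours in the counting is not given in the sources used here.

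*POX_b02461* was the most abundant of the lower C2H2 genes, at 226.3, 194.1 and 143.5 FPKM in GXUR001, against 239.4 and 251.7 FPKM in TE4-10. GXUR001 replicate 1 lay close to the lower TE4-10 value, and the difference was -0.41 on the log2 scale (standard error 0.20), and -0.23 without GXUR001 replicate 3. *POX_d05049* had 76.8, 62.1 and 51.3 FPKM in GXUR001, against 91.7 and 85.2 FPKM in TE4-10 (-0.49). *POX_d04930* had 86.0, 84.5 and 79.6 FPKM in GXUR001, against 105.3 and 97.4 FPKM in TE4-10, the smallest difference of the C2H2 genes (-0.28). The remaining C2H2 genes were at lower levels. *POX_a00603* had 18.9, 16.5 and 16.9 FPKM in GXUR001, against 21.3 and 22.6 FPKM in TE4-10 (-0.32). *POX_b02929* had 5.34, 5.03 and 4.50 FPKM in GXUR001, against 7.16 and 7.98 FPKM in TE4-10 (-0.53).

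**Figure D2:**
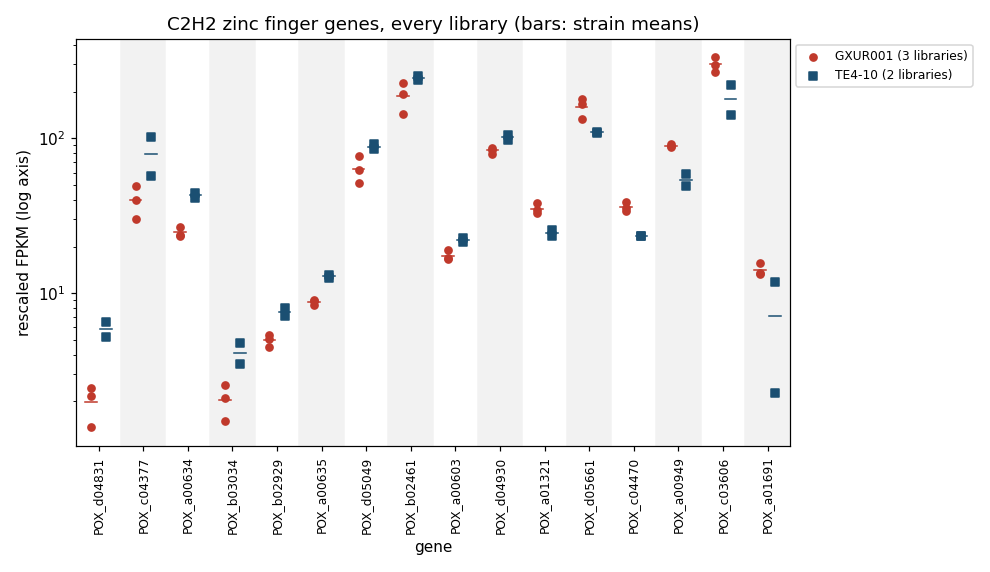
Rescaled FPKM (y axis, log scale) of the 16 C2H2 genes in every library, ordered by fold change from left to right; circles are the 3 GXUR001 libraries, squares the 2 TE4-10 libraries and short bars the strain means. The strains are apart in each gene, against 53.1% of all genes tested. The TE4-10 squares of *POX_a01691* (2.27 and 11.9 FPKM) are the farthest from each other.

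Within GXUR001 the rescaled values of most C2H2 genes had a shared order among libraries. GXUR001 replicate 3 had the lowest rescaled value in 13 of the 16 and GXUR001 replicate 1 the highest in 12 of the 16. Over all genes tested these shares were 39.9% and 40.7%, and over all 63 members they were 60.3% and 58.7%. This order depended in part on the scaling, which divided by 0.875 in GXUR001 replicate 1 and by 0.991 in GXUR001 replicate 3. In the FPKM as deposited, *POX_b02461* kept it, at 197.96, 177.93 and 142.27 in GXUR001 replicates 1, 2 and 3. *POX_b02929*, *POX_b03034*, *POX_c03606*, *POX_c04377*, *POX_d05049* and *POX_d05661* also fell from replicate 1 to replicate 3 as deposited. The other C2H2 genes did not have the full order there, and the shares over all genes as deposited were not counted. *POX_d04930* had the reverse order as deposited, at 75.23, 77.47 and 78.85. The summed rescaled FPKM of the 16 genes was 1191, 1074 and 937 in GXUR001 replicates 1, 2 and 3, against 1059 and 955 in TE4-10 replicates 1 and 3. The sums of the strains overlapped. *PoxAmyR* had its highest GXUR001 value in replicate 1 and its lowest in replicate 3 as well, and the part of this in the C2H2 values was not tested.

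The 16 winged helix genes were nearly all lower in GXUR001, 14 of the 15 tested, with a median log2 fold change of -0.41. Over all genes tested, 49.9% were lower after rescaling and 70.4% in the FPKM as deposited. Only 1 of the 15 was called (6.67%, against 17.8% of all genes tested). Their levels were low to middling, with a median of 19.1 FPKM and none above 100. Their summed FPKM was 349.2, 333.5 and 304.9 in GXUR001, against 478.5 and 439.3 in TE4-10. The most abundant, *POX_b02279*, had 71.8, 66.1 and 57.3 FPKM in GXUR001, against 84.5 and 88.9 FPKM in TE4-10 (log2 fold change -0.41, standard error 0.12). *POX_d04994* had 54.1, 58.5 and 58.2 FPKM in GXUR001, against 86.5 and 90.4 FPKM in TE4-10 (-0.63, standard error 0.09). *POX_d05717* had 16.6, 14.0 and 10.7 FPKM in GXUR001, against 24.8 and 20.1 FPKM in TE4-10 (-0.68, standard error 0.20).

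*POX_a00746*, listed as a winged helix repressor DNA-binding protein, had 40.2, 35.7 and 31.5 FPKM in GXUR001, against 70.2 and 42.8 FPKM in TE4-10. Its log2 fold change of -0.61 (standard error 0.23) was -0.26 when TE4-10 replicate 1 was left out and -0.96 when TE4-10 replicate 3 was, so its size turned on the TE4-10 library used. *POX_d05280*, which is also listed with a CBM12 carbohydrate-binding module, had 14.9, 17.9 and 16.5 FPKM in GXUR001, against 20.5 and 25.8 FPKM in TE4-10 (-0.47, standard error 0.14, and -0.31 without TE4-10 replicate 3). CBM12 modules are known from chitinases. *POX_a01742* had 17.4, 15.5 and 14.3 FPKM in GXUR001, against 27.7 and 21.1 FPKM in TE4-10 (-0.59). The other lower winged helix genes with FPKM above 5 in every library, *POX_b02187*, *POX_d05573*, *POX_d05389*, *POX_d05837*, *POX_a00181*, *POX_d05820* and *POX_a01133*, had log2 fold changes of -0.44 to -0.18.

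The winged helix genes at the extremes were scarce ones. *POX_c04517* had 0.549, 0.818 and 1.09 FPKM in GXUR001, against 10.1 and 1.03 FPKM in TE4-10, so that only TE4-10 replicate 1 stood apart and the strains overlapped. Its log2 fold change of -1.39 had a standard error of 0.72, and without TE4-10 replicate 1 the gene no longer reached a mean FPKM of 1 and was not tested. *POX_a00431*, the only winged helix gene that was higher, had 3.85, 4.15 and 5.21 FPKM in GXUR001, against 1.503 and 2.75 FPKM in TE4-10 (0.81, standard error 0.25, and 0.51 without TE4-10 replicate 1). *POX_d05532*, which did not pass the filter, had 0.194, 0.098 and 0.515 FPKM in GXUR001, against 0.673 and 0.828 FPKM in TE4-10, and no fold change is given for it.

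**Figure D3:**
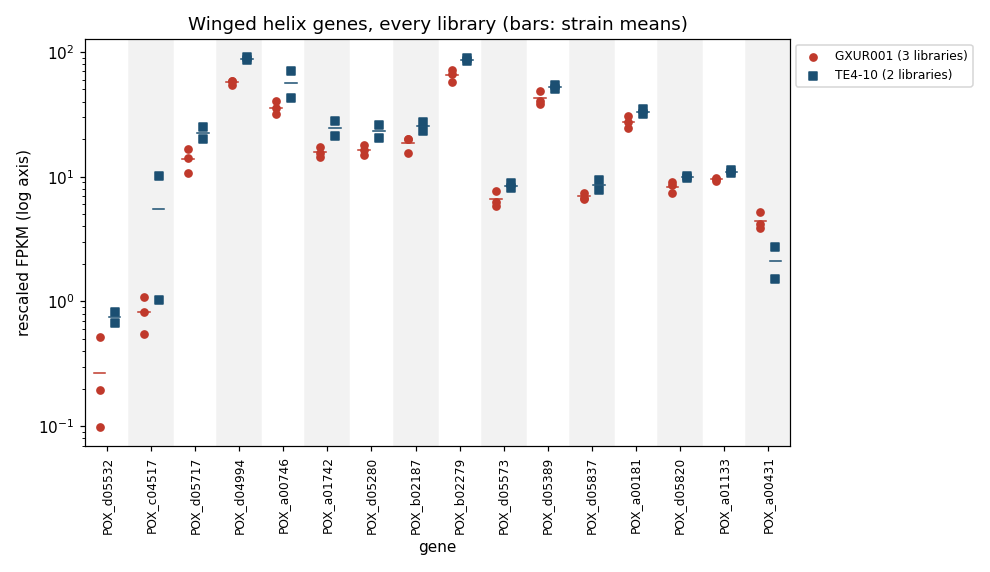
Rescaled FPKM (y axis, log scale) of the 16 winged helix genes in every library, with the untested *POX_d05532* first and the others ordered by fold change; circles are the 3 GXUR001 libraries, squares the 2 TE4-10 libraries and short bars the strain means. In *POX_c04517* a TE4-10 square at 1.03 FPKM lies among the GXUR001 circles, and in *POX_a00431* alone the circles lie above the squares.

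Of the 5 CCHC genes, 4 were higher in GXUR001, with a median log2 fold change of 0.54, and 3 had a mean above 100 FPKM. *POX_a01627* had 262.4, 263.4 and 260.2 FPKM in GXUR001, within 1.01 times of each other, against 156.1 and 130.1 FPKM in TE4-10 (log2 fold change 0.87, standard error 0.11). The most abundant, *POX_d05027*, had 413.9, 354.4 and 311.7 FPKM in GXUR001, against 280.4 and 165.1 FPKM in TE4-10. The log2 fold change of 0.73 (standard error 0.25) was 1.10 when TE4-10 replicate 1 was left out and 0.35 when TE4-10 replicate 3 was, and its strains overlapped in the FPKM as deposited. *POX_a00205* had 174.8, 152.4 and 132.2 FPKM in GXUR001, against 113.4 and 96.1 FPKM in TE4-10 (0.54). *POX_a01652* had 25.6, 25.6 and 26.5 FPKM in GXUR001, against 17.5 and 22.2 FPKM in TE4-10 (0.38), and the difference was 0.21 without TE4-10 replicate 1. *POX_b02092* was the exception, at 23.1, 25.3 and 28.8 FPKM in GXUR001, against 35.8 and 36.3 FPKM in TE4-10 (-0.48, standard error 0.12).

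All 5 Myb genes were lower in GXUR001, against 49.9% of all genes tested (70.4% as deposited), with log2 fold changes of -0.68 to -0.28. The strains did not overlap in any of them, against 53.1% of all genes tested. *POX_b02695*, listed as a putative Myb DNA-binding domain protein and also with AA7 and GT83 enzyme families, was the most abundant, at 75.04, 82.6 and 76.9 FPKM in GXUR001, against 122.8 and 128.6 FPKM in TE4-10. The difference was -0.68 on the log2 scale (standard error 0.09). *POX_b02532* had 4.58, 5.92 and 6.66 FPKM in GXUR001, against 10.0 and 8.49 FPKM in TE4-10 (-0.62). The other Myb genes, *POX_a00252*, *POX_a01673* and *POX_d05254*, averaged 13.5, 17.1 and 13.4 FPKM in GXUR001, against 20.1, 23.2 and 16.5 FPKM in TE4-10.

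The bZIP genes were divided. *POX_d05083* was the most abundant of all members, at percentile 96.8 of the genes tested, with 688.3, 729.4 and 707.4 FPKM in GXUR001, against 600.8 and 471.5 FPKM in TE4-10. The log2 fold change of 0.41 (standard error 0.13) was 0.24 without TE4-10 replicate 3. As deposited its strains overlapped. *POX_a00957*, which lies near *POX_a00949* on chromosome I with 7 genes between them, had 88.7, 85.6 and 67.3 FPKM in GXUR001, against 43.5 and 56.5 FPKM in TE4-10 (0.68, standard error 0.17). The other bZIP genes were lower. *POX_c03980* averaged 8.08 ± 0.518 FPKM in GXUR001 (SD, n = 3) and 12.3 ± 1.63 FPKM in TE4-10 (SD, n = 2), a log2 fold change of -0.55. *POX_b02899* averaged 40.3 ± 0.804 FPKM in GXUR001 (SD, n = 3) and 54.3 ± 7.95 FPKM in TE4-10 (SD, n = 2), a log2 fold change of -0.41 that was -0.27 without TE4-10 replicate 3.

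The 3 homeobox and homeodomain-like genes were all lower in GXUR001, against 49.9% of all genes tested (70.4% as deposited), at middling levels. *POX_b02297* had 45.7, 42.0 and 41.7 FPKM in GXUR001, against 73.8 and 83.7 FPKM in TE4-10 (log2 fold change -0.85, standard error 0.10). *POX_d05597*, listed as a homeodomain-like protein, had 93.2, 74.5 and 57.6 FPKM in GXUR001, against 135.5 and 122.0 FPKM in TE4-10 (-0.79, standard error 0.21). Its GXUR001 values differed by 1.62 times among themselves but stayed below both TE4-10 values. *POX_b03404* had 47.4, 46.8 and 42.0 FPKM in GXUR001, against 59.7 and 54.5 FPKM in TE4-10 (-0.33).

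Of the 13 types with 1 member each, 4 genes were higher and 9 lower. The highest fold change of all members was that of *POX_c03717*, entered as a negative transcriptional regulator, with 445.5, 444.8 and 409.8 FPKM in GXUR001, against 121.1 and 219.9 FPKM in TE4-10. The lowest GXUR001 value was well above the higher TE4-10 value, a difference of 1.40 on the log2 scale (standard error 0.25). With only TE4-10 replicate 3 as the parent it was 0.97, and with only TE4-10 replicate 1 it was 1.83. *POX_c04028*, listed as an NF-X1 finger transcription factor, had 14.6, 15.4 and 15.97 FPKM in GXUR001, against 5.36 and 7.93 FPKM in TE4-10 (1.11, standard error 0.17). *POX_b01966*, the DNA polymerase kappa gene, had 57.01, 59.2 and 65.1 FPKM in GXUR001, against 41.2 and 49.9 FPKM in TE4-10 (0.41, and 0.26 without TE4-10 replicate 1). *POX_d05861*, a YL1 nuclear protein gene of a family known in yeast for depositing a histone variant, had 14.4, 16.3 and 16.3 FPKM in GXUR001, against 11.3 and 12.2 FPKM in TE4-10 (0.39). As deposited, the strains overlapped in both *POX_b01966* and *POX_d05861*.

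Among the 9 lower genes of these types, *POX_c04458*, entered under the heteromeric CCAAT factors, which bind the CCAAT box of many fungal promoters, had 129.6, 121.3 and 111.1 FPKM in GXUR001, against 173.3 and 154.3 FPKM in TE4-10 (log2 fold change -0.44, standard error 0.11). *POX_b03212*, for the Not1 scaffold, had 18.7, 17.3 and 13.1 FPKM in GXUR001, against 22.3 and 23.1 FPKM in TE4-10 (-0.46). *POX_a01305*, entered as GCN5-like 1, had 21.9, 23.5 and 24.1 FPKM in GXUR001, against 41.3 and 33.8 FPKM in TE4-10 (-0.67, standard error 0.12). The p53-like gene *POX_c04410*, of a fold that in yeast includes the meiotic regulator Ndt80, had 61.9, 55.8 and 50.3 FPKM in GXUR001, against 88.6 and 83.0 FPKM in TE4-10 (-0.61, standard error 0.12).

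*POX_a00725*, entered as APSES, a fungal family known for regulators of development, is listed as a glycoside hydrolase superfamily protein of family GH5, so the entries of the list disagree about what it encodes. It had 38.3, 36.6 and 33.8 FPKM in GXUR001, against 50.4 and 47.7 FPKM in TE4-10 (log2 fold change -0.43, standard error 0.10). *POX_b02398*, of the HMG type, whose box bends DNA, averaged 51.2 ± 5.89 FPKM in GXUR001 (SD, n = 3) and 71.0 ± 14.3 FPKM in TE4-10 (SD, n = 2), a log2 fold change of -0.46 that was -0.26 without TE4-10 replicate 1. *POX_b03048* of the CP2 type averaged 39.3 ± 7.74 FPKM in GXUR001 (SD, n = 3) and 57.5 ± 3.33 FPKM in TE4-10 (SD, n = 2), a log2 fold change of -0.55. The scarcer ones were *POX_a01089*, with a MIZ finger of the kind found in SUMO ligases, at 7.42 FPKM in GXUR001 and 10.6 FPKM in TE4-10 on average, and *POX_a01105*, with an RFX domain, at 4.97 FPKM in GXUR001 and 6.64 FPKM in TE4-10. Of the 2 genes with an AT-rich interaction region, a domain also found in chromatin remodelling subunits, *POX_b03164* had 17.8, 19.7 and 17.7 FPKM in GXUR001, against 26.4 and 22.2 FPKM in TE4-10 (-0.38). *POX_a00492* had 14.1, 11.1 and 9.78 FPKM in GXUR001, against 13.9 and 15.1 FPKM in TE4-10 (-0.30, and -0.19 without GXUR001 replicate 3), and its strains overlapped after rescaling.

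**Figure D4:**
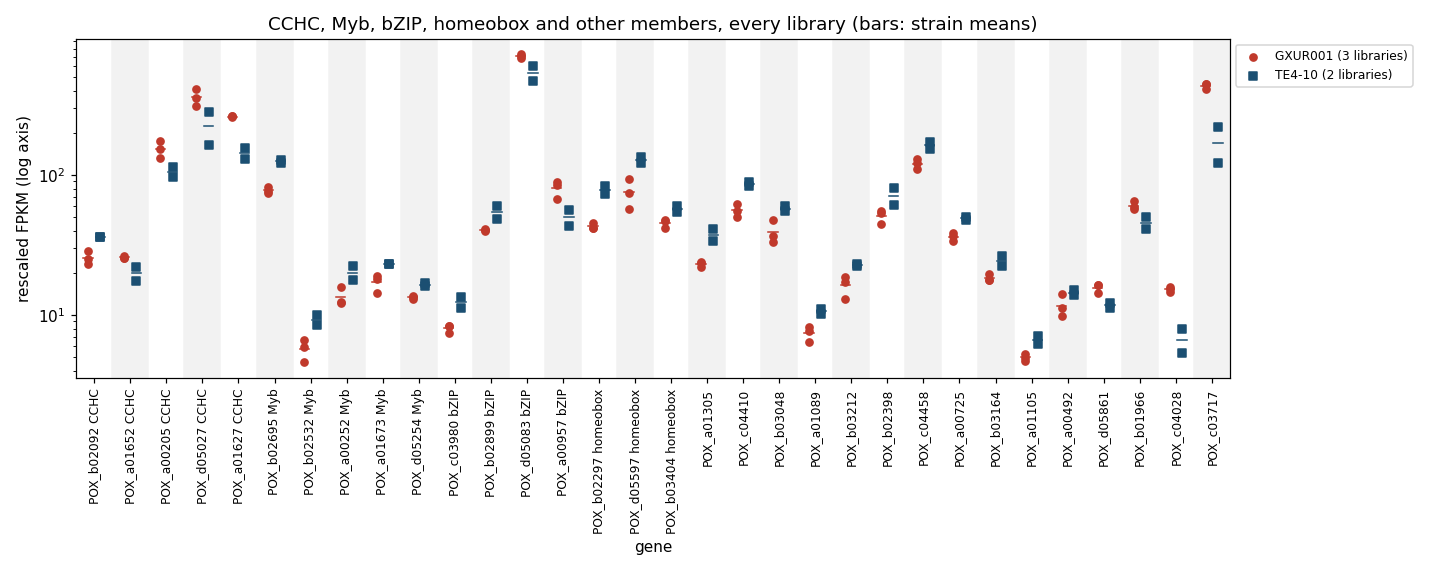
Rescaled FPKM (y axis, log scale) of the 32 members other than C2H2 and winged helix genes in every library, grouped by type (unlabelled genes are of types with 1 or 2 members); circles are the 3 GXUR001 libraries, squares the 2 TE4-10 libraries and short bars the strain means. The GXUR001 circles of *POX_c03717* (409.8 to 445.5 FPKM) lie well above its squares (121.1 and 219.9 FPKM), and *POX_d05083* is the most abundant gene.

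The median level of the members over the 5 libraries was 29.9 FPKM, at percentile 51.6 of the genes tested, with 12 genes under 10 FPKM and 9 above 100. The 17 higher genes had a median level of 68.3 FPKM and the 46 lower genes 21.0 FPKM. This level is a mean over 3 GXUR001 and 2 TE4-10 libraries, so part of the gap follows from splitting genes by direction. In TE4-10 replicates 1 and 3 alone, the medians were 43.46 and 56.45 FPKM for the higher genes, against 27.7 and 24.5 FPKM for the lower. Of the 9 members above 100 FPKM, 7 were higher in GXUR001, and *POX_b02461* and *POX_c04458* were lower. This count is tied to the direction in the same way. The lower genes *POX_d05597*, *POX_b02695* and *POX_d04930* averaged 128.7, 125.7 and 101.4 FPKM in TE4-10 but stood under 100 by this level. The 7 higher genes averaged above 100 FPKM in TE4-10 as well. The share higher among all genes above 100 FPKM was not counted. Over all genes tested, summed rescaled FPKM was 1404000, 1347000 and 1307000 in GXUR001, against 1113000 and 1108000 in TE4-10. The medians of the 5 libraries were 27.3 to 27.9 FPKM. The lean of abundant members is therefore not read as particular to them. The 41 Zn2Cys6 genes of the same list, picked by the same threshold, had a median level of 18.6 FPKM and a median log2 fold change of -0.37, with 13 higher and 28 lower. The spread within strains was alike, with a median SD of 0.14 on the log2 scale in both lists and 0.16 over all genes tested. None of these differences between lists was tested.

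**Figure D5:**
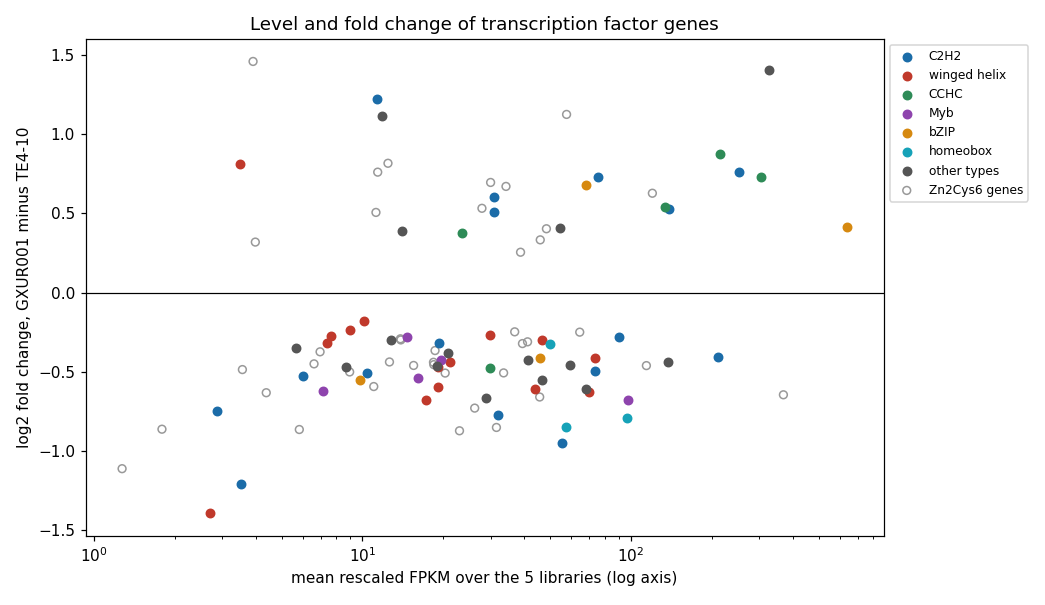
Log2 fold change (GXUR001 minus TE4-10, y axis) against the mean rescaled FPKM over the 5 libraries (x axis, log scale) of the 63 tested members, coloured by type, with the 41 Zn2Cys6 genes as open circles. Members above 100 FPKM lie mostly above 0 (7 of 9), and the share over all genes above 100 FPKM was not counted. The mean on the x axis includes the GXUR001 libraries, so level and fold change are not independent. The scarcest tested member, *POX_c04517*, has the lowest fold change, which rests on TE4-10 replicate 1 alone.

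By the reference gene table, 22 of the members lie on chromosome I, 16 on II, 9 on III and 17 on IV. The part of the list at hand ends within the genes of chromosome IV, so members on the other chromosomes were not analysed here. Apart from the pair *POX_a00634* and *POX_a00635*, the closest members had at least 7 genes between them, and consecutive members had a median of 52 genes between them.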

How the data were processed

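Each library came as a file of FPKM computed by the authors. Clean reads had been matched to the *P. oxalicum* HP7-1 genome, as the paper's text says, and the submitters' processing notes name bcl2fastq and HISAT2. The counting tool, strand handling and annotation version are not given in the sources used here, so reads of overlapping or near-identical genes may have been split. Relative depth was read from the steps of low values. The absolute number of reads behind a value is not stated, so no interval for counting error is given.

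From the deposited FPKM, libraries were rescaled by the median of their gene-wise ratios to the geometric mean, genes averaging 1 FPKM or more were kept, and log2(FPKM + 1) was compared by limma 3.58.1 in R 4.3.3 (eBayes with a trend, residual degrees of freedom 3, prior degrees of freedom 2.45), with Benjamini-Hochberg adjustment over all genes tested and calls at an adjusted p under 0.05. An exact permutation test of 3 against 2 libraries cannot pass this threshold. Members were matched by gene ID to the list, whose own FPKM, fold change and p columns were not used. The members and lists were chosen with earlier results of these data known. Named genes were all C2H2 members, the 8 highest and 8 lowest fold changes of other members whose strains did not overlap, the most abundant member of each type with 4 or more members, members with a listed function or enzyme family, and types with 1 or 2 members; any further gene was picked after seeing its values. Of 9822 annotated IDs, 9718 matched the reference gene table (assembly ASM172317v3), which served for chromosomes and gene order only. No protein or promoter sequences were used, so the lists planned from protein motifs, the check of each type against its sequence and the promoter counts were not made. Alternatives changed the scaling (none, or the upper quartile at percentile 75), the pseudocount (0.1), the filter (none, or 10 FPKM), the trend (none), the libraries (each omitted in turn) and the p (not adjusted), or added the replicate number as a block. A fit of annotated genes only was chosen after seeing the data. Plots used matplotlib 3.10.9 (Python 3.11.15).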

Additional observations from a re-analysis of the deposited data

How the results depend on the processing

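With 2 TE4-10 libraries, a difference between them decides the size of several fold changes, and calls at an adjusted p depend on single libraries. Each of the 63 tested members kept the sign of its log2 fold change under every alternative in which it was tested, but the members were picked for their difference in this contrast, so this is no sign of stability. As deposited, 463 genes were called higher and 2198 lower, 41 members were called lower, and the median log2 fold change of the members was -0.68 against -0.41. With the replicate block (replicate number 1 to 3), limma called 0 genes higher and 0 lower over all genes and 0 members in either direction, while 1368 genes were higher and 1109 lower at an unadjusted p under 0.05, among them 11 higher and 26 lower members. The block leaves fewer residual degrees of freedom than the main fit. GXUR001 replicate 2 has no TE4-10 partner there and adds nothing to the strain difference. The median log2 fold change of the members was -0.43 with the block and -0.43 without GXUR001 replicate 2. The loss of calls therefore says little about pairing by replicate number. The numbers share no labelled culture or day, and deviations from the strain means correlated at -0.01 for number 1 and 0.04 for number 3. With 2 TE4-10 libraries, their deviations are the same values with opposite sign, so these correlations are not separate checks. At an unadjusted p under 0.05 in the fit without the block, 1815 genes were higher and 1621 lower, with 16 and 36 of the members. Leaving out each library gave 16 to 1069 genes called higher and 1 to 767 lower, and 0 to 10 members called higher and 0 to 10 lower. With upper quartile scaling 798 genes were called higher and 1042 lower, with 6 and 17 of the members. The alternatives on protein motif lists could not be run. Apart from what fewer libraries or another scaling do by construction, the cause was not tested.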
